A study of Mus musculus with 15 samples.

Results

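The genes described here code for the protein parts of the machinery that removes introns from messenger RNA precursors. They were chosen by symbol as every row of the expression table named Srsf with a number, Snrp, Sf3a or Sf3b with a number, or Hnrnp, leaving out pseudogenes marked -ps. This gave 52 of 17594 genes, made up of 11 Srsf, 12 Snrp, 9 Sf3 and 20 Hnrnp genes. RNA was taken from regulatory T cells (Treg), a CD4 lineage that depends on the transcription factor Foxp3, and from conventional CD4 T cells (Tconv), sorted from the spleens of C57BL/6 mice. The knockout animals (KO) combined a conditional allele of Hpgd, the enzyme that begins the breakdown of prostaglandin E2, with a Foxp3-Cre-YFP driver, so that recombination is directed to cells with an active Foxp3 locus and the Tconv of these animals lie outside the driver's lineage. There were 4 Treg KO, 4 Tconv KO, 4 Treg WT and 3 Tconv WT libraries, where WT stands for control animals labelled wild-type, for which no floxed or Cre allele is named. The labels used here give neither age nor sex.

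Splicing is carried out by the spliceosome, which is built from small nuclear ribonucleoproteins (snRNPs), each a small nuclear RNA with a ring of Sm proteins and a few proteins of its own. The U1 snRNP marks the start of an intron, and the U2 snRNP, with its SF3A and SF3B subcomplexes, engages the branch point near the intron's end. SR proteins (Srsf genes) bind mainly exonic sequences and favour their inclusion, while heterogeneous nuclear ribonucleoproteins (Hnrnp genes) coat nascent RNA and often favour skipping. In T cells the best known target is CD45, whose variable exons are left out of the transcript after activation, with hnRNP L and hnRNP LL among the proteins that act on them.

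Libraries held between 2.64 and 11.1 M reads assigned to genes, with the Treg KO group lowest at 3.89 ± 0.896 M reads (SD, n = 4) and Treg WT at 8.35 ± 1.48 M reads (n = 4), and Tconv KO at 5.40 ± 3.41 M reads (n = 4) and Tconv WT at 8.77 ± 2.26 M reads (n = 3). Foxp3 averaged 4046 ± 541 normalized reads in Treg KO and 4502 ± 369 in Treg WT, and 40.8 ± 22.5 in Tconv KO and 17.1 ± 3.14 in Tconv WT. Hpgd had 0 reads in both KO groups, 1 read in all Treg WT libraries together and 0 in Tconv WT, so its loss was not detectable at this depth (counting error alone leaves room for 0.193 reads per M in the Treg KO libraries and 0.139 in those of Tconv KO). The X-inactivation transcript Xist was abundant in the 8 KO libraries and near 0 in WT, while the Y-linked Ddx3y had 0 reads in KO and a mean of 1361 ± 161 normalized reads in Treg WT and 1419 ± 108 in Tconv WT. The label numbers also separate the genotypes, at 574 to 581 for KO and 483 to 490 for WT, so genotype, sex and the run of sample numbers cannot be told apart in any comparison of KO with WT. Adjacent numbers belong to a Treg and a Tconv library of 1 genotype, and the labels do not say whether these share an animal. A pair of libraries stood apart. Treg KO replicate 3 was the shallowest library and lay below the other Treg KO libraries in genes of high GC content. Tconv KO replicate 1 had a summed level of 6 Treg markers of 6786 normalized reads. This stood against 1348 to 3224 in the other Tconv KO libraries and 2193 to 2453 in Tconv WT. Foxp3, which is part of that sum, was at most 69.5 in any Tconv KO library.

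Levels of different genes are compared here as normalized reads per kb of transcript, using 1 coding transcript per gene. In every group the highest member was Hnrnpa2b1, which packages nascent RNA and carries some messages to distant parts of the cell, at 3260.0 ± 79.1 per kb in Treg KO, 2960.2 ± 359 in Tconv KO, 2702 ± 174 in Treg WT and 3187 ± 90.6 in Tconv WT. Hnrnpf, a binder of G-rich runs, followed in all 4 groups. Among SF3 subunits Sf3b1, the large scaffold that holds the branch point, led in each group, at 1175 ± 177 per kb in Treg KO and 1095 ± 22.1 in Treg WT. Its small partner Sf3b5 stood lowest in that family, at 46.1 ± 23.4 in Treg KO and 61.4 ± 7.71 in Treg WT. Srsf5 led the SR genes with 1136 ± 128 per kb in Treg KO and 1131 ± 54.1 in Treg WT, a gap smaller than the spread between libraries. Srsf12 was the lowest SR gene in every group, at 5.21 ± 2.48 per kb in Treg KO and 4.54 ± 0.309 in Treg WT.

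**Figure D1:**
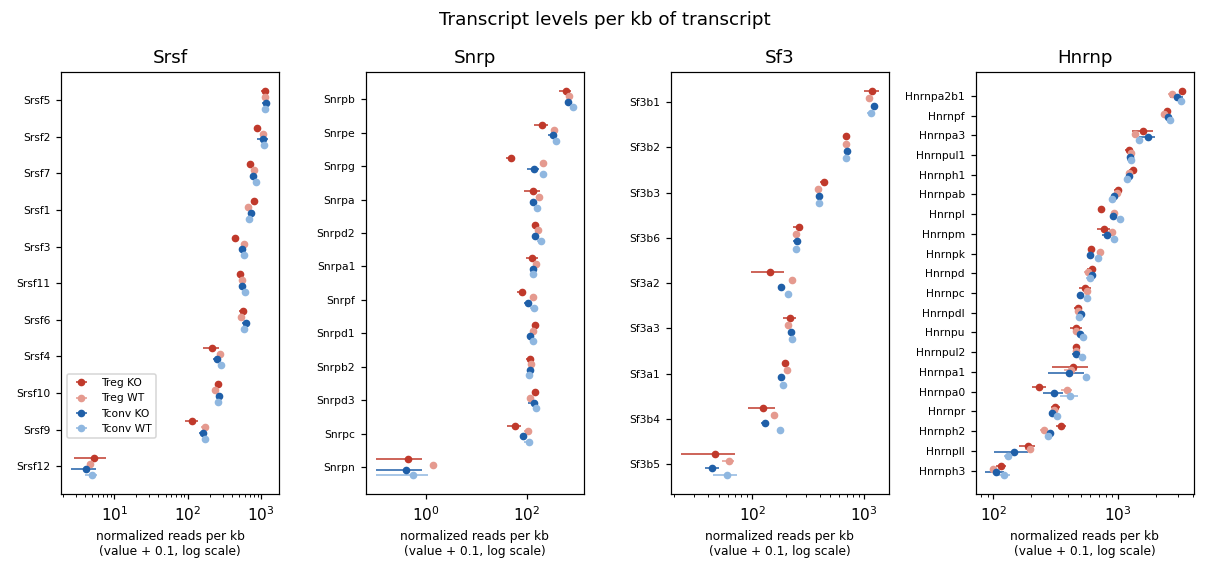
Mean level of each of the 52 genes in normalized reads per kb of transcript (horizontal log axis, 0.1 added), by family, with bars of 1 SD over libraries (4 Treg KO, 4 Treg WT, 4 Tconv KO, 3 Tconv WT; lower bars end at 0.1 where the SD is above the mean). The Sm gene Snrpg is the one whose Treg KO point lies far left of the other 3 groups, at 48.7 ± 9.99 per kb.

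The genes of the Sm ring are parts of one complex, yet their transcripts differed in level. Per kb, Snrpb stood at 609 ± 160.4 in Treg KO and 711 ± 51.0 in Treg WT, while Snrpd1, Snrpd2 and Snrpd3 lay between 143 and 147 in Treg KO and between 116 and 168 in Treg WT. In Treg KO Snrpg was the lowest of the 11 Snrp genes that could be tested, at 48.7 ± 9.99 per kb. In Treg WT Snrpe and Snrpg ranked next after Snrpb, at 352 ± 34.9 and 213 ± 25.02 per kb. Snrpn, an imprinted Sm gene used mainly in brain, had 2 reads in all Treg KO libraries, 14 in Treg WT, 2 in Tconv KO and 4 in Tconv WT. It did not pass the filter on low values (at least 10 normalized reads in at least 3 libraries), and the other 51 members did.

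In Treg, 13 of the 51 tested members differed between KO and WT at a Benjamini-Hochberg adjusted p under 0.05 in limma, 3 higher and 10 lower in KO. Over all 11314 genes tested 21.5% passed in this comparison, 10.4% higher and 11.1% lower, and 25.5% of the members did, a share near that of all genes. The median log2 difference of the members was -0.04, and that of all genes was near 0. By family, 1 of 11 Srsf genes was higher and 2 lower, 0 of 11 Snrp genes were higher and 4 lower, 0 of 9 Sf3 genes were higher and 1 lower, and 2 of 20 Hnrnp genes were higher and 3 lower. The Snrp genes had a median log2 difference of -0.27, the Srsf genes of -0.11, and the Sf3 and Hnrnp genes of 0.01 each. For 35 of the 51 members, or 68.6%, the 95% interval of the difference lay within 1.5-fold in both directions, as it did for 53.9% of all genes. Here and in later comparisons these shares were not matched for read level, on which the width of an interval depends. In bulk samples fewer cells of a kind and less RNA per cell cannot be told apart, and the p-values measure the spread between these samples only. Of the 13 calls, 7 (Snrpg, Snrpf, Srsf3, Hnrnph2, Hnrnpl, Hnrnpa0 and Hnrnpk) were made in all 11 other ways of processing and without each of the 8 libraries in turn. With each library's trend on GC content removed, 1 member was higher and 13 were lower. The members had a lower median GC content than all genes (46.4% against 50.4%), and genes of low GC content ran higher in Treg KO. The share of all genes called under that fit is not given here, so these counts are not a result about the members.

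**Figure D2:**
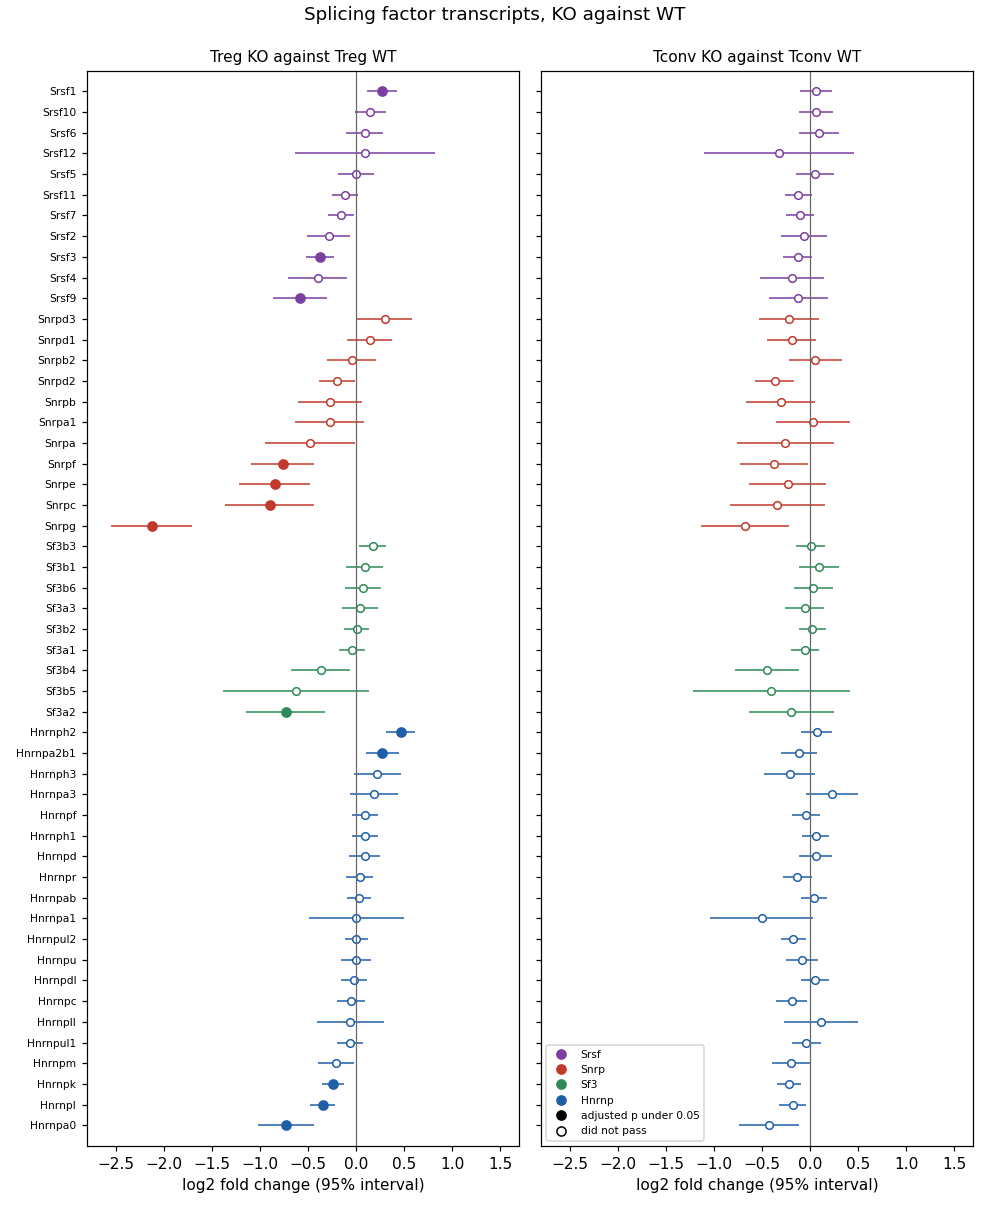
Log2 fold change with its 95% interval for the 51 tested genes, Treg KO against Treg WT on the left (4 and 4 libraries) and Tconv KO against Tconv WT on the right (4 and 3 libraries), grouped by family in order of the left panel. Filled points have an adjusted p under 0.05: 13 genes on the left, with Snrpg at -2.12, and 0 on the right.

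Among the 51 members Snrpg differed most between Treg KO and Treg WT. The gene (Sm protein G, ENSMUSG00000057278.8, chromosome 6, 86371304 to 86379328, plus strand, GRCm38) had 37.7, 55.8, 62.5 and 49.5 in Treg KO libraries, against 235, 202, 204 and 257 in Treg WT libraries. Every KO library lay below every WT library, with means of 51.4 ± 10.5 in Treg KO and 225 ± 26.4 in Treg WT (SD, n = 4 each). The log2 difference was -2.12 ± 0.20 (SE), a level 4.36-fold lower in KO (limma, adjusted p = 7.32e-06), and it passed under all 11 other ways of processing and without each library in turn, with values between -2.28 and -1.97. Stretches of Snrpg recur in 3 pseudogenes and 1 other gene of the annotation, so its reads are uncertain to that extent.

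Snrpe and Snrpf code for Sm proteins E and F, which form a trimer with Sm protein G before the ring closes on the small nuclear RNA. Snrpe (ENSMUSG00000090553.8, chromosome 1, 133603871 to 133610291, minus strand) had 98.6, 81.3, 144 and 78.9 in Treg KO libraries, against 175, 201, 158 and 176 in Treg WT libraries. Snrpf (ENSMUSG00000020018.6, chromosome 10, 93583029 to 93589706, minus strand) had 75.4, 84.9, 62.5 and 54.8 in Treg KO libraries, against 116, 128, 112 and 111 in Treg WT libraries. For neither gene did the groups overlap. Snrpf shares its place in the annotation with Ccdc38, and its reads are uncertain to that extent. Ccdc38 averaged 41.7 normalized reads in Treg KO and 29.6 in Treg WT, the opposite direction to Snrpf, at 69.4 and 117. How reads were shared between these genes was not tested under any of the settings. The log2 differences were -0.85 ± 0.17 for Snrpe and -0.76 ± 0.15 for Snrpf (limma, adjusted p = 0.00454 and 0.00423). Snrpe did not pass with each library's trend on transcript length removed (log2 difference -0.58, adjusted p = 0.0507).

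Of the other ring members, Snrpb, Snrpd1, Snrpd2 and Snrpd3, 0 of 4 passed in Treg. Snrpd2 had 206, 200.2, 213 and 214 in Treg KO libraries, against 258, 225, 238 and 235 in Treg WT libraries, with no overlap and a log2 difference of -0.20 ± 0.09 (limma, adjusted p = 0.124). Snrpd3 had 359.8, 445, 457 and 480.1 in Treg KO libraries, against 339.9, 339, 350.1 and 377 in Treg WT libraries, where the lowest KO value lay inside the WT range and the others above it, and a difference of 0.30 ± 0.13 (adjusted p = 0.12, 95% interval 0.01 to 0.59). The difference of Snrpd1 was 0.14 ± 0.11 with an interval of -0.09 to 0.38, and that of Snrpb was -0.27 ± 0.16 with an interval of -0.60 to 0.07. Among the proteins particular to 1 snRNP, Snrpc (U1-C, which steadies the pairing of U1 with the start of the intron) was lower, at 44.3 ± 13.8 in Treg KO and 81.2 ± 13.7 in Treg WT. Its difference was -0.90 ± 0.22 (adjusted p = 0.0105), without overlap between groups, and it did not pass with reads thinned to the depth of the shallowest library (adjusted p = 0.085). Snrpa of U1 and Snrpa1 and Snrpb2 of U2 did not pass, with differences of -0.48, -0.27 and -0.04.

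**Figure D3:**
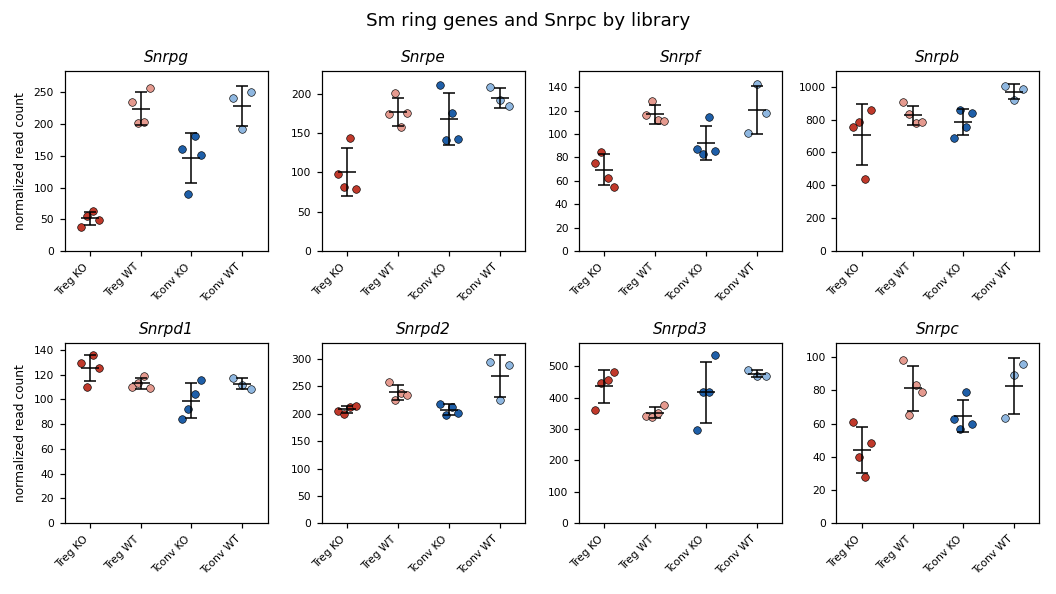
Normalized read count (vertical axis, from 0) of the 7 Sm ring genes and of Snrpc in each library, by group, with mean and SD as black bars. For Snrpg all Treg KO points lie at 62.5 or below and all Treg WT points at 202 or above, while for Snrpd1 the Treg groups overlap.

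Sequence before the start is shown for Snrpe and Snrpf, which were lower in Treg KO, and for Snrpd2, a ring gene that did not pass, so that they can be set side by side. RefSeq (GRCm38.p6) gives the 250 bases before each gene's start, but GENCODE vM21 places these starts further upstream. Of the 250 bases, 11 in Snrpe, 48 in Snrpf and 116 in Snrpd2 lie inside the gene by GENCODE and are not printed, and for Snrpg it is 236, so none is printed. Capitals mark letters of 5 short motifs, searched on both strands and chosen with results of these data known: the ETS core CCGGAAG, the CCAAT box, the TATA box TATAAA, the NRF1 site (GCGC, any base, then TGCGC) and the cAMP response element TGACGTCA. No marked matches overlap one another. The stretches, 5′ to 3′ on the gene's own strand, are chr1:133610292-133610530, minus strand for Snrpe, chr10:93589707-93589908, minus strand for Snrpf and chr7:19149588-19149721, plus strand for Snrpd2.
Snrpe: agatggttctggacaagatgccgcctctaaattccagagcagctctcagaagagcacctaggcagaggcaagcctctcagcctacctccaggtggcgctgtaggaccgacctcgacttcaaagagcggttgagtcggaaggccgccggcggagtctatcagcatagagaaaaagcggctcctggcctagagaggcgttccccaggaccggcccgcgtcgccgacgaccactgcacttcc
Snrpf: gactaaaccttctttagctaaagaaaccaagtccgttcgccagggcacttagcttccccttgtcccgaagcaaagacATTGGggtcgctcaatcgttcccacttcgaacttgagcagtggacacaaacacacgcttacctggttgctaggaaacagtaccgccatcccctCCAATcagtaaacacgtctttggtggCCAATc
Snrpd2: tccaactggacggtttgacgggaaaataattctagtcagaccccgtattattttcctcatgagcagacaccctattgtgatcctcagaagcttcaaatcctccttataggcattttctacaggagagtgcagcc
In the whole RefSeq windows Snrpf holds 3 CCAAT boxes, all in the stretch printed, and in Snrpe none of these letters occur. Snrpd2 holds an NRF1 site, and Snrpg an ETS core, a CCAAT box in reverse and a cAMP response element, all of them inside the gene by GENCODE. RefSeq promoters were found for 46 of the 52 members. The ETS core was present in 15 of the 46 genes (32.6%), against 7.83% of 27025 genes with a promoter in the table, and the NRF1 site in 9 (19.6%), against 4.23%. CCAAT was present in 22 members (47.8%) against 37.5% of genes, TATAAA in 6 against 14.3% of genes, and TGACGTCA in 2, Snrpa and Snrpg (4.35%), against 1.77%. The 27025 genes were not limited to those tested here, so these shares do not set the members apart from other expressed genes. A match of letters is a description of the sequence and not a measured site.

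The SF3A and SF3B genes, whose products anchor U2 at the branch point, mostly lay close between Treg KO and Treg WT. Sf3a2 (the subunit that ties SF3A to the U2 snRNP, ENSMUSG00000020211.15, chromosome 10, 80798198 to 80804924, plus strand) was the 1 member of this family that passed. It had 337, 377, 166 and 393 in Treg KO libraries, against 538, 501, 466 and 503 in Treg WT libraries, with replicate 3 far below the other KO libraries and no overlap with WT. The log2 difference was -0.73 ± 0.19 (limma, adjusted p = 0.016), and -0.44 without Treg KO replicate 3 (adjusted p = 0.00153). It did not pass with the GC trend removed (-0.23, adjusted p = 0.127) or in a fit of only the Treg libraries (adjusted p = 0.0609). Sf3a2 overlaps Plekhj1 in the annotation, so its reads are uncertain.

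For the large SF3B subunits the groups were close. Sf3b1 had a difference of 0.09 ± 0.09 with a 95% interval of -0.11 to 0.29, and Sf3b2 had 0.01 ± 0.06 with an interval of -0.12 to 0.13. Sf3b3 had 1821, 1953, 2241 and 1923 in Treg KO libraries, against 1806, 1736, 1721 and 1748 in Treg WT libraries, without overlap, and a difference of 0.17 ± 0.07 (limma, adjusted p = 0.0701). Sf3b4, which contacts RNA upstream of the branch point, had 325, 243, 164 and 231 in Treg KO libraries, against 310.4, 318, 298 and 282 in Treg WT libraries. These groups overlapped through KO replicate 1, and the difference of -0.37 ± 0.14 had an adjusted p of 0.0803 in limma. Sf3b5 had 222, 257, 51.7 and 178 in Treg KO libraries, against 269, 248, 200.1 and 226 in Treg WT libraries, with KO replicate 3 far below the other libraries and an interval of -1.38 to 0.13. Sf3a1 had 956, 1059, 926 and 933 in Treg KO libraries, against 1034, 998, 1006 and 939.7 in Treg WT libraries, and its interval was -0.17 to 0.09.

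Among SR genes, Srsf3, the smallest of the classical SR proteins and one that also takes part in RNA export, was lower in Treg KO. It (ENSMUSG00000071172.13, chromosome 17, 29032628 to 29043373, plus strand) had 1227, 1149, 1169.9 and 1119 in Treg KO libraries, against 1602, 1552, 1474 and 1426 in Treg WT libraries. The highest KO value lay below the lowest WT value, with means of 1166 ± 45.6 in Treg KO and 1513 ± 78.6 in Treg WT. The log2 difference was -0.37 ± 0.07, 1.30-fold lower (limma, adjusted p = 0.00201), and -0.60 with the GC trend removed. Srsf9, a close relative of Srsf1, had 167, 135, 101 and 128 in Treg KO libraries, against 192, 227, 172 and 199 in Treg WT libraries. It too was lower without overlap, with a difference of -0.58 ± 0.13 (limma, adjusted p = 0.00796), and did not pass with thinned reads (adjusted p = 0.0878).

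Srsf1, the founding SR protein and a general enhancer of exon inclusion, was the 1 SR gene that was higher. It (ENSMUSG00000018379.17, chromosome 11, 88047373 to 88053755, plus strand) had 2218, 2282, 2547 and 2352 in Treg KO libraries, against 1962, 2036, 2071 and 1706 in Treg WT libraries. All KO values lay above all WT values, and the difference was 0.28 ± 0.07, 1.21-fold (limma, adjusted p = 0.0169). The call was lost with the GC trend removed (log2 difference 0.05, adjusted p = 0.624) and without Treg WT replicate 4 (adjusted p = 0.0565). Of the other 8 SR genes, which did not pass, Srsf4 had a difference of -0.40 ± 0.14 and Srsf2 of -0.28 ± 0.10. Those of Srsf5, Srsf6, Srsf7, Srsf10, Srsf11 and Srsf12 lay between -0.15 and 0.15. Srsf10, known for its switch to a repressor when dephosphorylated, had 736, 728, 911 and 816 in Treg KO libraries, against 722, 736, 753 and 652 in Treg WT libraries, with overlap. Srsf11 had 1287, 1373, 1465 and 1319.9 in Treg KO libraries, against 1463, 1429.8, 1545 and 1452 in Treg WT libraries, also with overlap.

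The hnRNP genes held 2 of the 3 members that were higher in Treg KO. Hnrnph2, an X-linked relative of Hnrnph1 that binds G-rich RNA (ENSMUSG00000045427.13, chromosome X, 134601179 to 134607060, plus strand), had 778, 744, 903 and 887 in Treg KO libraries, against 597, 614, 629 and 551 in Treg WT libraries. The groups were apart, with means of 828 ± 78.9 in Treg KO and 598 ± 34.1 in Treg WT, and the log2 difference was 0.47 ± 0.07, 1.38-fold (limma, adjusted p = 7.72e-04). With the GC trend removed it was 0.24 (adjusted p = 0.0215). It is the only member on the X chromosome, and Xist is high in the KO libraries and near 0 in WT; the part of sex in this difference cannot be told apart from genotype. In Tconv the difference was 0.07 ± 0.08 with an interval of -0.10 to 0.23. The difference between the cell types did not pass (limma, adjusted p = 0.221), and the part of sex was not tested in either. The related gene Hnrnph1 had 0.10 ± 0.06 in Treg.

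Hnrnpa2b1 was also higher in Treg KO, at 5339.9 ± 129.5 in Treg KO and 4426 ± 285 in Treg WT, a log2 difference of 0.27 ± 0.08 (limma, adjusted p = 0.0263) without overlap. The call was lost with the GC trend removed (log2 difference 0.06, adjusted p = 0.721), without Treg KO replicate 4 (adjusted p = 0.0522) and without Treg WT replicate 4 (adjusted p = 0.0846).

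Hnrnpl, Hnrnpa0 and Hnrnpk were lower in Treg KO. Hnrnpl (ENSMUSG00000015165.16, chromosome 7, 28808541 to 28822266, plus strand) had 1597, 1680.1, 1515 and 1486 in Treg KO libraries, against 1959, 1993, 1967 and 2045 in Treg WT libraries. The groups were well apart, and the log2 difference was -0.34 ± 0.06 (limma, adjusted p = 0.00179). Hnrnpa0, which binds AU-rich elements in messages (ENSMUSG00000007836.6, chromosome 13, 58125879 to 58128556, minus strand), had 677, 666, 502 and 659 in Treg KO libraries, against 1104, 1129.7, 984 and 914 in Treg WT libraries. It was lower in each KO library, most of all in replicate 3, with a difference of -0.73 ± 0.14 (limma, adjusted p = 0.00259), and -0.62 without that replicate. Hnrnpk, a binder of C-rich RNA and DNA, had 1749.6, 1652, 1504 and 1610.1 in Treg KO libraries, against 1890.0, 1903, 1871 and 2014 in Treg WT libraries. Its groups did not overlap, and the difference was -0.24 ± 0.06 (limma, adjusted p = 0.00902), or -0.46 with the GC trend removed.

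Hnrnpll, the relative of Hnrnpl known for switching CD45 exons in activated T cells, did not pass. It had 635, 615, 567 and 453 in Treg KO libraries, against 598, 644, 537 and 568 in Treg WT libraries, with overlap, and an interval of -0.41 to 0.30. For 18 of the 20 Hnrnp genes the 95% interval in Treg lay within 1.5-fold. Hnrnpu, which binds nuclear RNA and chromatin, had -0.00 ± 0.07, and Hnrnpul2 had 0.01 ± 0.06. Hnrnpa1 and Hnrnpa3 have 17 and 38 pseudogene copies in the annotation, and the copies listed in the table (Gm10052 and Gm5643 for Hnrnpa1, Gm6793 for Hnrnpa3) held levels like those of the parent gene, so both are uncertain. In all, 32 of the 52 members have at least 1 stretch of 200 or more bases at 90% identity or above in annotated transcripts of another gene or pseudogene. Among them are Snrpg (3 pseudogenes and 1 other gene), Snrpe (2 pseudogenes), Snrpc (7 pseudogenes) and Srsf3 (4 pseudogenes and 1 other gene). Their reads are uncertain to that extent, while Srsf1, Srsf9 and Hnrnpa0 have no such stretch. The Hnrnpa1 copies summed to a mean of 1434 normalized reads in Treg KO and 1462 in Treg WT, beside 754 ± 243 in Treg KO and 723 ± 88.7 in Treg WT for Hnrnpa1 itself.

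**Figure D4:**
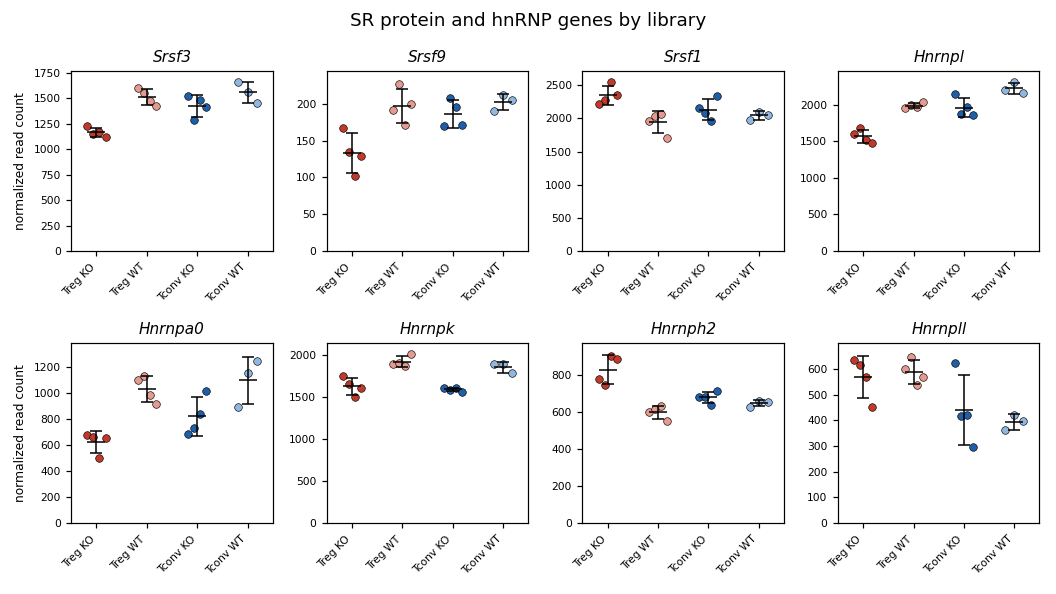
Normalized read count (vertical axis, from 0) of 3 SR genes and 5 Hnrnp genes in each library, by group, with mean and SD as black bars. Srsf3, Srsf9, Hnrnpl, Hnrnpa0 and Hnrnpk lie lower in Treg KO than in Treg WT, Srsf1 and Hnrnph2 lie higher, and Hnrnpll lies higher in Treg WT than in Tconv WT.

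In Tconv, 0 of the 51 members passed between KO and WT in limma, where 0.681% of all genes did, 0.292% higher and 0.389% lower. At an unadjusted p under 0.05 there were 9 members, or 17.6%, as did 12% of all genes; edgeR called 0 members, and DESeq2 called 1, Hnrnpk, among 236 genes. The median log2 difference of the members was -0.12, with 34 of 51 below 0, against a median of 0.00 over all genes. For 39 of 51 members (76.5%) the 95% interval lay within 1.5-fold, as it did for 62.3% of all genes. Leaving out Tconv KO replicate 1 also gave 0.

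Snrpd2 had the smallest p of the Snrp genes in Tconv. It had 218, 197, 213 and 202 in Tconv KO libraries, against 294, 226 and 290.0 in Tconv WT libraries, and these values did not overlap, with a difference of -0.37 ± 0.10 (limma, adjusted p = 0.122). Without Tconv WT replicate 2, the lowest of its group, the adjusted p was 0.0348. Snrpg had 161, 90.02, 181 and 152 in Tconv KO libraries, against 241, 192 and 251 in Tconv WT libraries. Here too all KO values lay below all WT values, by a narrow margin between 181 and 192, and the difference was -0.68 ± 0.21 (limma, adjusted p = 0.198). Snrpe and Snrpf overlapped between the Tconv groups, at differences of -0.23 ± 0.19 and -0.38 ± 0.17.

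Hnrnpk had 1608, 1584, 1609 and 1565 in Tconv KO libraries, against 1890.0, 1893 and 1779.9 in Tconv WT libraries. The groups were apart, with a difference of -0.22 ± 0.06 (limma, adjusted p = 0.141; DESeq2, adjusted p = 0.00527). Hnrnpa0 had 690.5, 732, 844 and 1022 in Tconv KO libraries, against 898, 1159 and 1246 in Tconv WT libraries, with overlap, and a difference of -0.42 ± 0.15 (adjusted p = 0.241 in limma). Hnrnpl differed by -0.18 ± 0.06 (adjusted p = 0.259 in limma) with no overlap. Sf3b4 had 245, 267, 227 and 250.1 in Tconv KO libraries, against 348, 323 and 342 in Tconv WT libraries, without overlap, and a difference of -0.45 ± 0.16 (limma, adjusted p = 0.243). Sf3b5 had 147, 164, 159.7 and 203 in Tconv KO libraries, against 172, 225 and 282 in Tconv WT libraries, where the groups overlapped. Srsf3 and Srsf11, the SR genes with the smallest p, overlapped as well. Srsf3 had 1522, 1283, 1484 and 1419 in Tconv KO libraries, against 1658, 1565 and 1456 in Tconv WT libraries, and Srsf11 had 1363, 1416, 1512 and 1567 in Tconv KO libraries, against 1665, 1602 and 1513 in Tconv WT libraries, with differences of -0.13 ± 0.07 and -0.12 ± 0.07.

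The test of whether the KO difference itself differed between Treg and Tconv called 0 of 51 members in limma, where 0.15% of all genes passed, 0.0354% with a higher and 0.115% with a lower value. At an unadjusted p under 0.05 there were 9 members, or 17.6%, against 8.51% of all genes. Among 17 genes edgeR called 1 member (Snrpg), and among 91 genes DESeq2 called 2 (Snrpg and Hnrnph2). For Snrpg the log2 difference was -2.12 in Treg and -0.68 in Tconv, and the difference between them was -1.45 ± 0.29 (limma, adjusted p = 0.0871; edgeR, adjusted p = 0.0406; DESeq2, adjusted p = 0.000338). Without Tconv KO replicate 2, which held the lowest Snrpg value of its group, the adjusted p was 0.00972 in limma. For Hnrnph2 the difference between cell types was 0.40 ± 0.10 (limma, adjusted p = 0.221; DESeq2, adjusted p = 0.0496). For Srsf3 it was -0.25 ± 0.10 and for Sf3a2 -0.53 ± 0.28, with adjusted p = 0.506 and 0.627 in limma. Without Treg KO replicate 3, or without Tconv KO replicate 1, 0 members passed. The Treg calls are therefore not shown to be particular to Treg.

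In WT animals, Treg and Tconv differed in 2 of 51 members in limma, 1 higher and 1 lower in Treg, where 18.1% of all genes passed, 10% higher and 8.06% lower. Hnrnpll was higher in Treg, with 598, 644, 537 and 568 in Treg WT libraries, against 362, 421 and 396 in Tconv WT libraries. The groups did not overlap, and the log2 difference was 0.58 ± 0.18, 1.49-fold (limma, adjusted p = 0.0348). The call was lost in 6 of the 7 fits that left out 1 library, with a highest adjusted p of 0.135 without Tconv WT replicate 1, and with thinned reads. Snrpd3 was lower in Treg, with 339.9, 339, 350.1 and 377 in Treg WT libraries, against 489, 469 and 469 in Tconv WT libraries. These groups were apart too, with a difference of -0.44 ± 0.15 (limma, adjusted p = 0.0486), and the call was lost in all 7 fits that left out 1 library and in 7 of 11 other ways of processing. For 44 of 51 members (86.3%) the 95% interval between the WT groups lay within 1.5-fold, against 55.9% of all genes, which were not matched for read level.

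Some members that did not pass also lay apart between the WT groups. The share of all genes whose groups lie apart was not counted, here or in the comparisons above. Lack of overlap is therefore only a description of the genes named. Hnrnpa1 averaged 723 ± 88.7 in Treg WT libraries and 959 ± 26.6 in those of Tconv WT without overlap, a log2 difference of -0.41 ± 0.25 (limma, adjusted p = 0.302, and 0.00176 in a fit of only the WT groups), with its reads uncertain as above. Hnrnph3 and Hnrnpa2b1 did not overlap either, at -0.28 ± 0.12 and -0.24 ± 0.09, and Hnrnpa2b1 passed with DESeq2, in the fit of only the WT groups and with thinned reads. Srsf10 had 722, 736, 753 and 652 in Treg WT libraries, against 832, 822 and 731 in Tconv WT libraries, and Sf3a1 had 1034, 998, 1006 and 939.7 in Treg WT libraries, against 909, 960.2 and 911 in Tconv WT libraries, both with overlap. Hnrnpl, the other CD45 regulator, had 1959, 1993, 1967 and 2045 in Treg WT libraries, against 2208, 2309 and 2160.0 in Tconv WT libraries. It lay lower in every Treg WT library, with a difference of -0.16 ± 0.06 (adjusted p = 0.106 in limma).

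In KO animals 8 of 51 members differed between Treg and Tconv in limma, 2 higher and 6 lower in Treg, where 31.4% of all genes passed, 15.8% higher and 15.6% lower. The KO groups enter both this comparison and those with WT, so the values are given side by side and not as a further result. Snrpg was lower in Treg KO than in Tconv KO, with a log2 difference of -1.47 ± 0.20 (limma, adjusted p = 5.05e-05), and the WT difference was -0.02 ± 0.21. Snrpe was lower too, with -0.75 ± 0.17 (adjusted p = 0.00395 in limma), with 144 in Treg KO replicate 3 above the lowest Tconv KO values. Srsf3 (-0.29), Srsf9 (-0.50), Hnrnpl (-0.32) and Hnrnpa0 (-0.39) were lower as well, and Hnrnph2 (0.28) and Snrpd1 (0.34) were higher, all as log2 differences.

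Of these 8, only Snrpg and Hnrnpl passed in all 11 other ways of processing and without each library. Hnrnpa0 was lost without Treg KO replicate 3 (adjusted p = 0.117), without Tconv KO replicate 3 (adjusted p = 0.0899) and without Tconv KO replicate 4 (adjusted p = 0.128). Snrpd1 was lost in 4 of the 8 fits that left out 1 library. Without Tconv KO replicate 1, which stood apart in the summed Treg markers, 10 members passed and 7 of the 8 were among them. Without Treg KO replicate 3 the counts were 7 and 6. With the GC trend removed 0 members were higher and 12 lower in Treg KO, and with thinned reads 0 were higher and 3 lower. The shares of all genes called in these fits are not given here, so the directions are not a result about the members.

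The rest of the splicing apparatus was read from 4 further lists. Among 78 other genes of the spliceosome core 11 were higher and 11 lower in Treg KO than in Treg WT (limma, adjusted p under 0.05), with a median log2 difference of 0.04. That is 28.2% of the list, where 21.5% of all genes passed, 10.4% higher and 11.1% lower. Slu7, which acts in the second step of splicing, averaged 718 ± 68.9 in Treg KO and 552 ± 49.8 in Treg WT, a difference of 0.38 ± 0.08 (limma, adjusted p = 0.00383). Luc7l3 and U2surp, proteins that join U1 and U2, were higher by 0.46 and 0.43, and the intron-binding helicase Aqr by 0.35. Lsm7, of the ring that surrounds U6, was lower, at 27.0 ± 13.3 in Treg KO and 65.1 ± 12.2 in Treg WT (-1.41 ± 0.34, adjusted p = 0.0105 in limma). Txnl4a of the U5 particle, the pyrimidine-tract binder Puf60 and the branch-point binder Sf1 were lower, with log2 differences of -0.41, -0.35 and -0.29.

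Among 48 tested splicing regulators outside the SR and hnRNP names 6 were higher and 5 lower in Treg KO, or 22.9%, where 21.5% of all genes passed. Rbmx, Pnisr, Tra2a and Rbm6 were higher by 0.35, 0.35, 0.30 and 0.28, and Raly, Arglu1, Ybx1 and Rbm4 had differences of -0.41, -0.32, -0.34 and -0.38. Among 10 kinases and import factors of SR proteins 2 were higher and 1 lower, or 30%, against the same 21.5% of all genes. Dyrk1a, a kinase, and Tnpo3, which carries SR proteins into the nucleus, were higher by 0.28 each, and the kinase Clk2 had a difference of -0.23. Among 16 genes for the assembly of snRNPs 1 was higher and 3 lower, or 25%, against 21.5% of all genes. Ddx20 of the SMN complex was higher by 0.34. Snupn, the import adaptor of finished snRNPs, averaged 33.9 ± 11.2 in Treg KO and 53.9 ± 4.91 in Treg WT (-0.72 ± 0.22, adjusted p = 0.03 in limma), and Clns1a, a chaperone of Sm proteins, and Gemin7 had differences of -0.30 and -0.37. In Tconv 0 genes of these 4 lists passed between KO and WT in limma, and 12 of 78, 9 of 48, 0 of 10 and 2 of 16 had an unadjusted p under 0.05, a cut that 12% of all genes passed.

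Between the WT cell types, 5 of the 78 core genes passed, 1 higher and 4 lower in Treg, as did 7 of 48 regulators, 4 of 10 kinases and import factors and 2 of 16 assembly genes, against 18.1% of all genes. The muscleblind gene Mbnl3 had a mean of 378 ± 29.4 in Treg WT and 185 ± 15.9 in Tconv WT, a difference of 1.02 ± 0.13 (limma, adjusted p = 4.40e-05), and 0.87 ± 0.12 between the KO groups. Aqr was lower in Treg WT, at 889 ± 64.4 in Treg WT and 1471 ± 39.8 in Tconv WT (-0.73 ± 0.08). The SR kinases Srpk1 and Srpk2 were lower, at log2 differences of -0.54 and -0.34, as was the Sm methylase Prmt5 at -0.44. Gemin8 of the SMN complex was higher, at 115 ± 19.7 in Treg WT and 52.0 ± 7.48 in Tconv WT (1.12 ± 0.32, adjusted p = 0.0215 in limma).

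Several measures moved with the Treg KO group. Over 11240 genes with a known transcript, the log2 difference between Treg KO and Treg WT correlated with GC content at r = -0.36. Over the 51 members this was r = -0.29. With the log2 of transcript length the same difference correlated at r = 0.18 over all these genes and r = 0.40 over the members. Genes and members share libraries, so these are descriptions. With genes put in 5 equal groups from low to high GC content, the median difference was lower in each next group, with values of 0.20, 0.13, 0.03, -0.11 and -0.32. The members had a median GC content of 46.4%, against 50.4% over all genes. The 3 Sm ring genes that passed had a median transcript length of 861 bases, against 1290.5 bases for the 4 that did not. Their median GC content was 42.54%, against 50.01%. By gene, the lengths were 503, 861 and 1055 bases for Snrpe, Snrpf and Snrpg, which passed. They were 1161, 858, 1420 and 3036 bases for Snrpb, Snrpd1, Snrpd2 and Snrpd3, which did not. Of 1039 tested genes under 1000 bases, 56 were higher and 242 lower in Treg KO. Between Tconv KO and Tconv WT 2 of these short genes were higher and 23 lower. The part of GC content and length in the calls was not tested beyond the fits with those trends removed.

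In Treg KO replicate 3 the members' deviation from the mean of the other 3 Treg KO libraries correlated with GC content at r = -0.53, over all genes at r = -0.49, and 8 members lay more than 0.5 on the log2 scale below that mean. In the other Treg KO libraries r over the members lay between 0.34 and 0.40. Replicate 3 is part of the mean that each of these was set against, so their upward slopes are not separate observations. Without replicate 3 the same 13 members passed between Treg KO and Treg WT. The summed level of 10 B cell markers was 306 to 453 normalized reads in Treg KO and 171 to 273 in Treg WT, so every Treg KO library lay above every Treg WT library. Of the 5 of these markers that could be tested, all 5 had a log2 difference above 0, with a median of 1.06, and 2 passed, H2-Eb1 at 2.63 and H2-Aa at 1.60 (limma, adjusted p = 0.00575 and 0.0332). Cd79b averaged 135 ± 22.2 in Treg KO and 78.3 ± 4.95 in Treg WT, while Pax5 had 0 reads in all Treg KO libraries together and 1 in Treg WT. The summed levels of 10 CD8 T and NK cell markers were 224 to 337 in Treg KO and 225 to 281 in Treg WT. Those of 8 myeloid markers were 2.43 to 13.4 in Treg KO and 4.65 to 29.3 in Treg WT. Those of 8 erythroid and platelet markers were 8.62 to 17.4 in Treg KO and 21.2 to 29.3 in Treg WT. The part of these markers in the differences was not tested.

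**Figure D5:**
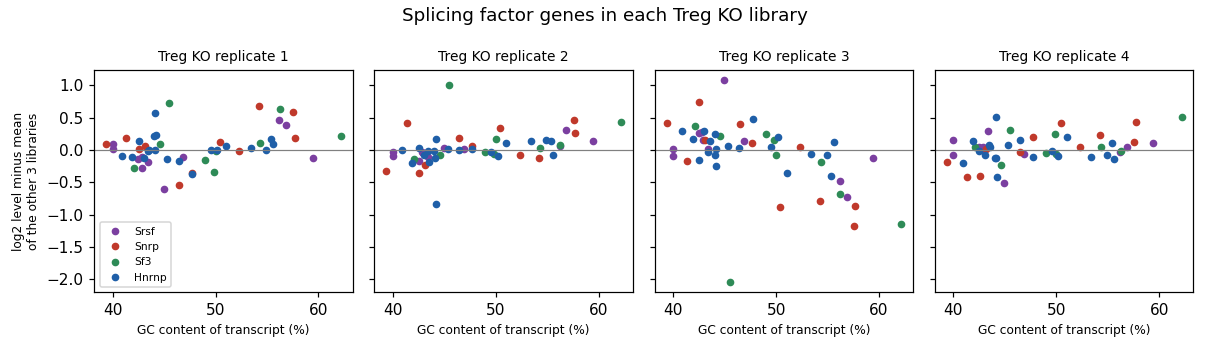
Log2 level of each of the 51 tested genes in 1 Treg KO library minus the mean of the other 3 Treg KO libraries (vertical axis) against the GC content of its transcript in percent (horizontal axis), by family. In replicate 3 the points slope downward, with Sf3b5 lowest, while in the other 3 libraries they slope weakly upward. Replicate 3 is part of the mean subtracted in those 3 panels, so the upward slopes depend on it.

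Summed over a family, the Snrp genes held 2328 ± 209 normalized reads in Treg KO and 2808 ± 73.6 in Treg WT, and 2568 ± 107 in Tconv KO and 3065 ± 87.5 in Tconv WT. All KO sums lay below all WT sums within both cell types. How often sums over other sets of genes lie apart was not counted, so this is only a description. Snrpb was the largest part of the sum in each group, at 707 in Treg KO and 825 in Treg WT. It did not pass between KO and WT in either cell type. The Srsf genes summed to 12787 ± 492 in Treg KO and 13254 ± 533 in Treg WT, the Sf3 genes to 13886 ± 920 in Treg KO and 13446 ± 146 in Treg WT, and the Hnrnp genes to 37277 ± 777 in Treg KO and 36683 ± 419 in Treg WT. In each of these families the Treg groups overlapped.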

How the data were processed

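Per the labels' protocols, sorted cells were lysed in Qiazol and Illumina TruSeq RNA libraries were built with 10 ng of total RNA. The submitters' processing notes name TopHat and mm10, while its version, the counter and strand use are not stated there. The values used are a normalized signal, which the authors made by dividing the reads of each gene by 1 factor per library. All 100% of values came out as whole multiples of the value of 1 read (tolerance 0.001), so whole reads were recovered. Libraries held 2.64 to 11.1 M reads, without molecular identifiers; the limit given for a count of 0 is one of counting only.

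log2(value + 1) was tested in limma 3.58.1 (R 4.3.3) with a trend on mean level, 4 group means over 15 libraries and two-sided contrasts, adjusted by Benjamini-Hochberg over the 11314 genes with at least 10 in at least 3 libraries. Fold changes on this scale understate changes of low genes. Libraries were treated as independent, since the labels do not say which share an animal, and replicate numbers follow the sample records and pair nothing.

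Members, lists, motifs and naming rule were chosen with earlier results of these data known. By that rule, values per library are given within each family for the 3 smallest p in Treg KO against Treg WT, the 2 smallest in Tconv and the smallest in each other comparison. Members that passed may be given too, as may up to 4 genes per direction of each further list in Treg KO against Treg WT and up to 2 elsewhere. Snrpb, Snrpd1 and Snrpc were plotted besides these.

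Alternatives were edgeR 4.0.16 and DESeq2 1.42.0 on recovered reads, a pseudocount of 8 or 0.1, unfiltered genes, a mean of at least 50, TMM scaling, only the groups compared, removal of trends on GC content or transcript length, thinning to 2.64 M reads, and leaving out each library. On recovered reads edgeR called 2444 genes between Treg KO and Treg WT, 93 between Tconv KO and Tconv WT, 2326 between Treg WT and Tconv WT, 3462 between Treg KO and Tconv KO, and 17 for the difference between cell types. GENCODE vM21 (GRCm38) matched 17368 of 17594 symbols, 686 of them as older symbols, and all 52 members. Copies were searched with BLAST 2.17.0 at 90% identity over 200 bases. The fits were tested on simulated data.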

Additional observations from a re-analysis of the deposited data

Results flagged for a closer look

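In 2 of 72 sets of 4 libraries examined, 1 library lay far from the other 3; chance at 1 in 20 would give 3.6. Hnrnpa0 had its lowest Treg KO value, 502 normalized reads, in replicate 3, and the nearest library had 659, so the gap took 0.896 of the group's range. Without that replicate the log2 difference of Hnrnpa0 between Treg KO and Treg WT was -0.62 (limma, adjusted p = 0.00666). Snrpf had its highest Tconv KO value, 114, in replicate 3, and the nearest library had 87.4, so the gap took 0.865 of the range.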

How the results depend on the processing

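Of 435 values under other settings for the 23 calls made in all comparisons together, 383 kept direction and side of the threshold. Direction was reversed in 0 of these values. Of 99 counts of members, 75 stayed within 1.5 times of the main count, and direction was not examined for counts. In 63 further cases a member passed under another setting that it had missed. Between Treg KO and Treg WT 13 members passed, against 11 to 15 in the 11 other ways of processing and 12 to 16 with 1 library left out. Between Tconv KO and Tconv WT 0 passed, against 1 with DESeq2 (Hnrnpk), 1 with the GC trend removed (Hnrnpc) and 0 to 1 with 1 library left out. Between Treg WT and Tconv WT 2 passed, against 6 with DESeq2, 10 in a fit of only the groups compared, 4 with the GC trend removed, 1 each with a pseudocount of 0.1, no filter, a mean of at least 50, TMM scaling and thinned reads, and 0 to 1 with 1 library left out. Between Treg KO and Tconv KO 8 passed, against 5 in a fit of only the groups compared, 3 with thinned reads, 12 with the GC trend removed and 7 to 11 with 1 library left out. For the difference between cell types 0 passed, against 1 with edgeR, 2 with DESeq2, 1 with the GC trend removed and 0 to 1 with 1 library left out. The causes were not tested. The labels give the groups no shared replicate numbers and do not say that Treg and Tconv libraries with adjacent numbers share an animal, so no fit with such pairs was made. TMM scaling moved the median difference of all genes by -0.02 to 0.01 on the log2 scale. Depth was lowest in Treg KO, at 2.64 to 4.71 M reads per library, which limits what can be seen in low genes such as Snrpn and Srsf12.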
